A study of Mus musculus with 6 samples.

Results

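Genes of cholesterol synthesis and its control were followed in RAW 264.7 cells, a mouse macrophage-like cell line, after 16 hours with or without bacterial lipopolysaccharide (LPS). The genes were Idi1, Hmgcs1, Fdps, Fdft1, Sqle, Sc5d, Dhcr7 and Insig1, each taken through the array probes whose platform annotation names that gene and no other. Of these 8 genes, 5 had such a probe, 1 probe each, among the 16281 probes of the array: Idi1, Fdft1, Sqle, Sc5d and Dhcr7. All 5 probes had a ratio on every array, and they form 5 of the 9607 genes tested. No probe was named for Hmgcs1, Fdps or Insig1 alone, so these genes have no value here, and no uptake gene is among the 5.

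Treated cells received LPS at 100 ng/ml together with LPS-binding protein at 100 pM, and untreated cells were cultured for the same time. Each of 6 dual-colour arrays compared RNA of both kinds of cells, in 3 numbered sets, each set with the treated RNA once in Cy5 and once in Cy3. Whether the sets are separate cultures is not in the labels, and the p-values therefore cover only the differences among these samples, possibly technical ones. Some labels name the line 264.4, and 264.7 is used here. It is an established line, so it stands for macrophages only as far as a transformed line does, and an array ratio cannot tell fewer expressing cells from less RNA per cell.

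Cholesterol is built from acetyl-CoA through mevalonate to farnesyl diphosphate, then through squalene and lanosterol to the sterol end product. SREBP transcription factors switch these genes on when membrane sterol is low, and INSIG proteins hold the SREBP precursor in the endoplasmic reticulum when sterol is high. In macrophages, the same intermediates feed protein prenylation, and sterol load is balanced by lipoprotein uptake, lysosomal export and efflux.

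Promoter windows are shown for Sc5d, the synthesis gene that rose, and for Idi1, the one of the 5 whose value differed most between arrays. Each holds the 250 bases before the RefSeq start site, 5′ to 3′ on the gene's strand, in assembly GRCm38.p6. The Sc5d window is chr9:42264301-42264550 on the minus strand and the Idi1 window is chr13:8885356-8885605 on the plus strand. Capitals mark matches, on either strand, to a sterol response element core (CACCCCAC), a CCAAT box (CCAAT), a GC box (GGGCGG) or an E-box (CACGTG).
Sc5d: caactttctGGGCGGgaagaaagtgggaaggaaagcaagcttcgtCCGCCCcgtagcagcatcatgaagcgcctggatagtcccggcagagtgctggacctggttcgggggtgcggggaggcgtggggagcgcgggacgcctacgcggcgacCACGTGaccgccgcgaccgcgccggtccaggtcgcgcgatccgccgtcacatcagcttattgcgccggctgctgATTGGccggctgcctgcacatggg
Idi1: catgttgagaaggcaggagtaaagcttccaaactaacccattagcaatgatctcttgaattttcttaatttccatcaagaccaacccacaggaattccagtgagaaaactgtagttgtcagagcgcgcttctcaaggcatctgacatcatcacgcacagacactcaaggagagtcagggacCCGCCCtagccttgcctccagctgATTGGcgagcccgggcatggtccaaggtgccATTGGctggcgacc
The Sc5d window held 2 GC boxes, 1 E-box and 1 CCAAT box, which begins 24 bases before the start. The Idi1 window held 2 CCAAT boxes and 1 GC box. No marked motif overlaps another in either window. Over the 32851 RefSeq windows of that length, 33.8% held a CCAAT box, 32.7% a GC box and 6.02% an E-box. Neither window held the 8-letter sterol response element core, found in 2.58% of windows. Of the 8 genes, 5 had an entry in the promoter table. Among these 5, Hmgcs1, which has no value here, had the sterol response element core, 136 bases before its start. Sqle, Fdft1 and Fdps had no entry. A match to these letters is a description and not a tested binding site.

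Values as deposited are log2 ratios, read here as Cy5 over Cy3. That direction is likely: the labels write "test" for whichever RNA is in Cy5 and "control" for whichever is in Cy3, treated or not, and with it the known LPS-induced genes Il6 and Il1b were higher in treated cells. All ratios below are treated over untreated on the log2 scale, with the SD over the 3 set values (n = 3), where a set value is the mean of 2 arrays. After this turning, the 6 arrays correlated across genes at 0.771 to 0.845 within an orientation and at 0.665 to 0.880 between orientations, where genes are not independent replicates. Across the 9607 genes, the limma fit called 31.4% at an adjusted p below 0.05, with 16.8% up and 14.6% down. Set 3 stood apart: 139 genes (1.45%) were at least 1 higher on the log2 scale there than in the mean of sets 1 and 2, and 0 were as much lower. The same gap was seen upward in 0 genes for set 1 and in 3 for set 2, and downward in 16 and 32. These counts are not independent, because a high value in set 3 also puts the other sets below the mean they are compared with. The ratios hold no expression level, so the macrophage identity of the cells could not be checked by level. Of 8 macrophage marker genes, 6 were measured, of which 4 rose and 1 fell.

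In treated cells, 2 of the 5 measured sterol synthesis genes changed, in opposite directions. Sqle, which makes the first oxygenation of squalene, fell to 0.706 of the untreated level, and Sc5d, a late sterol desaturase, rose 1.25-fold. Idi1, Fdft1 and Dhcr7 did not pass the threshold, with means of 0.31, 0.09 and -0.13. With 2 of 5 genes called, the share was near the 31.4% of all genes. The median over all 11 measured genes of cholesterol synthesis was 0.0063, beside -0.0076 over all genes tested.

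**Figure D1:**
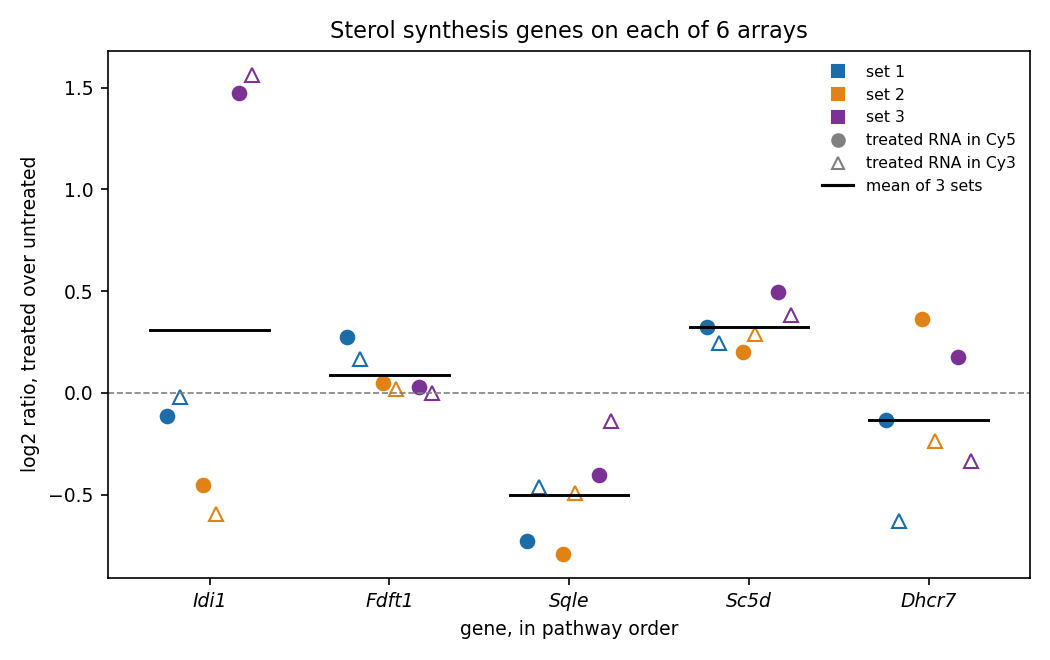
The log2 ratio of treated over untreated cells is plotted for the 5 measured genes in pathway order, with 1 point per array, coloured by set and shaped by the dye of the treated RNA, and a bar at the mean of the 3 sets. Sqle lies below 0 and Sc5d above 0 on all 6 arrays, Idi1 is high only on the 2 arrays of set 3, and Dhcr7 separates by dye.

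Idi1 isomerises isopentenyl diphosphate, the building block of all sterols and prenyl groups. With treated RNA in Cy5 its log2 ratios were -0.11, -0.45 and 1.47 in sets 1, 2 and 3, and in Cy3 they were -0.02, -0.59 and 1.56. Both arrays of set 3 were high and all 4 arrays of sets 1 and 2 were below 0, so set 3 did not overlap the other sets in either orientation. The set means were -0.07, -0.52 and 1.52, and the mean over sets was 0.31 ± 1.07 (95% interval -0.51 to 1.13, adjusted p = 0.576 in limma). Without set 3 the value was -0.30 (adjusted p = 0.0631 in limma). Idi1 thus has no direction that holds across the sets.

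Idi1 was 1.81 higher in set 3 than in the mean of sets 1 and 2 on the log2 scale, a gap reached by 24 of the 9607 genes (0.250%), Idi1 included. Its SD was reached by 23 genes (0.239%). For the other measured synthesis genes the same gap was 0.35 for Sqle, 0.18 for Sc5d, 0.08 for Dhcr7 and -0.11 for Fdft1, and 962 or more genes had a gap at least as large as each of these. The genes nearest to Idi1 over the 6 arrays, picked after its values were seen, were Qk, an RNA-binding protein, Hmgn5, a nucleosome-binding protein, and Zfp638, a zinc finger protein, at root mean square distances of 0.146, 0.183 and 0.213. Each showed the same split, with Qk at -0.28, -0.51 and 1.48 in sets 1, 2 and 3. That likeness follows from choosing genes by their distance to Idi1, and it is a description only.

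**Figure D2:**
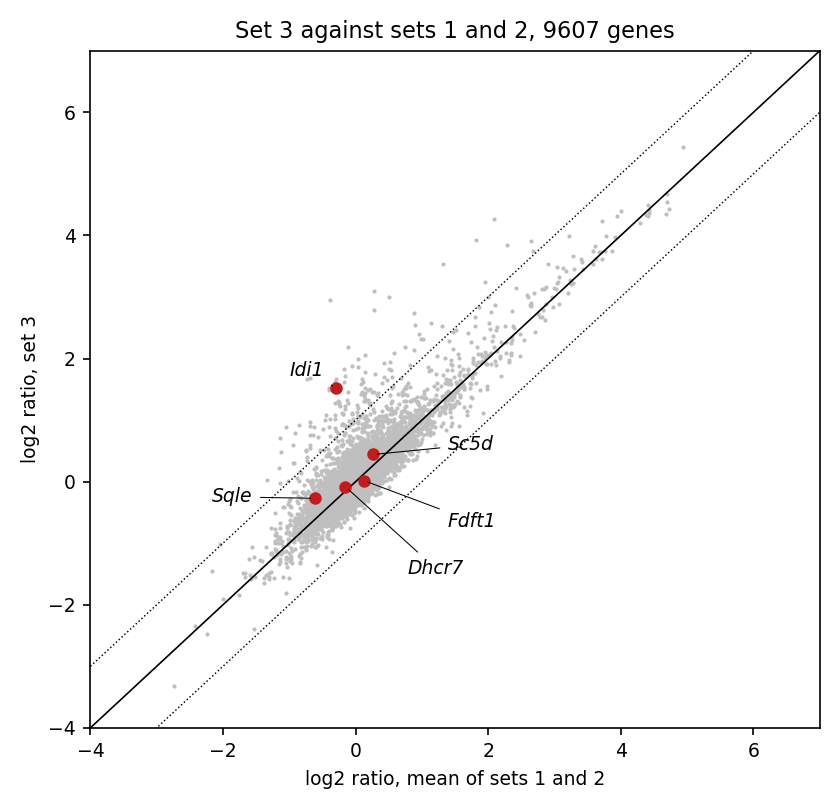
Each point is a gene, with the mean log2 ratio of sets 1 and 2 on the horizontal axis and the log2 ratio of set 3 on the vertical axis. The solid line marks equal values, the dotted lines a gap of 1, and the red points the 5 measured sterol synthesis genes. Idi1 lies 1.81 above the line of equal values, among 139 genes above the upper dotted line, while the other 4 red points lie between the dotted lines.

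Fdft1, squalene synthase, joins 2 farnesyl diphosphates and commits the pathway to sterols. Its log2 ratios were 0.28, 0.05 and 0.03 in sets 1, 2 and 3 with treated RNA in Cy5 and 0.17, 0.02 and 0.0013 in Cy3. All 6 arrays were above 0, those of sets 2 and 3 only just, and the 2 arrays of set 1 were the highest. The mean was 0.09 ± 0.12 (adjusted p = 0.452 in limma), with a 95% interval of -0.09 to 0.27, or 0.938-fold to 1.21-fold. Of all genes, 35.6% shared their sign across the 6 arrays.

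Sqle, squalene epoxidase, is a rate-controlling enzyme of the sterol branch and a target of SREBP2. Its log2 ratios were -0.73, -0.79 and -0.40 in sets 1, 2 and 3 with treated RNA in Cy5 and -0.46, -0.49 and -0.14 in Cy3. All 6 arrays were below 0, and in each orientation set 3 was the closest to 0. The mean was -0.50 ± 0.20 (95% interval -0.72 to -0.28, adjusted p = 0.00676 in limma), and 5.68% of all genes had a lower mean. The call held in all 14 other settings, with values from -0.64 to -0.36 and adjusted p-values from 0.000125 to 0.0446 in limma.

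Treated RNA in Cy5 gave Sqle a larger fall than in Cy3, -0.64 ± 0.21 against -0.36 ± 0.20. This dye difference did not pass over all genes (adjusted p = 0.156 in limma), in a test added after seeing the data. The genes whose 6 array values were nearest to those of Sqle were Agpat5, an acyltransferase of phospholipid synthesis, Khdrbs1, an RNA-binding protein, and the non-coding gene Gt(ROSA)26Sor. Their root mean square distances were 0.0891, 0.0938 and 0.0949, and their log2 ratios were -0.49, -0.47 and -0.55.

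Sc5d inserts a double bond at the last steps before cholesterol. Its log2 ratios were 0.32, 0.20 and 0.50 in sets 1, 2 and 3 with treated RNA in Cy5 and 0.25, 0.29 and 0.38 in Cy3. All 6 arrays were above 0, with set 3 highest in both orientations and no clear difference between dyes. The mean was 0.32 ± 0.10 (95% interval 0.14 to 0.50, adjusted p = 0.0167 in limma), and 85.1% of all genes had a lower mean. The value kept its size but not its call without set 1 (0.34, adjusted p = 0.0646 in limma), without set 3 (0.27, adjusted p = 0.0567) and with treated RNA in Cy5 only (0.34, adjusted p = 0.0634).

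Sc5d and Sqle share a pathway and had opposite signs on each of the 6 arrays. The genes nearest to Sc5d over the 6 arrays were Rims2, a synaptic active zone protein, BC004004 and Twf1, an actin-binding protein, at distances of 0.0562, 0.0615 and 0.0651. Within a distance of 0.1 lay 23 genes for Sc5d and 4 for Sqle. For Fdft1, Dhcr7 and Idi1, which were not called, the numbers were 110, 3 and 0.

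Dhcr7 reduces 7-dehydrocholesterol to cholesterol, the end of the branch that Sc5d feeds. Its log2 ratios were -0.13, 0.36 and 0.17 in sets 1, 2 and 3 with treated RNA in Cy5 and -0.63, -0.24 and -0.33 in Cy3. In each set the Cy5 array lay above the Cy3 array, and in sets 2 and 3 the sign turned with the dye. The mean was -0.13 ± 0.23 (95% interval -0.37 to 0.10, adjusted p = 0.388 in limma). By orientation, Dhcr7 was 0.14 ± 0.25 with treated RNA in Cy5 (adjusted p = 0.477 in limma) and -0.40 ± 0.20 in Cy3, where it passed the threshold (adjusted p = 0.022). The dye effect, the distance of either orientation from their mean, was 0.27 (95% interval 0.18 to 0.36, adjusted p = 0.142 in limma). Over all genes, this dye test called 0 genes in limma, where the lowest adjusted p was 0.0782. An unadjusted p under 0.05 was reached by 2273 genes (23.7%), and a model of 6 separate arrays called 35. Dhcr7 had an adjusted p of 0.202 in that model.

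Few other genes of the synthesis pathway could be read, and none of them passed the threshold. Of 22 listed enzymes from acetyl-CoA to cholesterol, 11 were measured, of which 1 rose, 1 fell and 9 did not pass. Lss, lanosterol synthase, had no probe named for it alone. In the mevalonate arm, the kinase Mvk (-0.00059 ± 0.20) and the decarboxylase Mvd (-0.13 ± 0.16) did not pass, and the 2 probes of Mvk gave -0.03 and 0.03. In the sterol arm, the lanosterol demethylase Cyp51 was at 0.04 ± 0.12 (adjusted p = 0.779 in limma). Hsd17b7, a 3-ketosteroid reductase of the same arm, came nearest among those that did not pass, at 0.22 ± 0.09 (adjusted p = 0.0618 in limma). Msmo1 and Tm7sf2 were at -0.10 and 0.0063. Pmvk and Ebp had a ratio on 4 arrays and 1 array and were left out.

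Regulators of SREBP were sparsely covered, with 3 of 13 listed genes measured, of which 2 fell and 1 rose, beside 31.4% of all genes called. So few genes describe only themselves. Srebf1, which encodes SREBP1, fell by 0.30 on the log2 scale (SD 0.05, adjusted p = 0.0165 in limma), and its set values were -0.30, -0.25 and -0.35. Its value was -0.46 with treated RNA in Cy5 only, and it did not pass in Cy3 only (-0.14, adjusted p = 0.291) or without set 1 (-0.30, adjusted p = 0.0791). Mbtps1, the site 1 protease that cuts SREBP free, was at -0.34 ± 0.12 (adjusted p = 0.0151 in limma), and each of its 3 probes was at -0.34. It lost its call without set 2 (-0.27, adjusted p = 0.0763). Spring1, a cofactor of that protease, rose (0.32 ± 0.13, adjusted p = 0.0227 in limma), a call lost without set 1 (0.24, adjusted p = 0.138) and with treated RNA in Cy5 only (adjusted p = 0.0634). Srebf2, Scap and Insig2 had no probe named for them alone.

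Sterol uptake and transport genes changed in both directions. Of 16 listed genes, 8 were measured, and 4 rose and 2 fell, beside 16.8% and 14.6% of all genes, with a median of 0.21. Npc2, which passes lysosomal cholesterol to Npc1, rose 2.66-fold (1.41 ± 0.18), or 0.92 on the log2 scale with exact zeros kept as ratios, which adds a probe. Stard3, a sterol carrier of late endosomes, rose 1.88-fold (0.91 ± 0.09, adjusted p = 0.00019 in limma). Gramd1a, which moves sterol from the plasma membrane to the endoplasmic reticulum, was at 0.52 ± 0.19 (adjusted p = 0.00551 in limma). Npc1, the lysosomal exporter, was at 0.48 ± 0.11 (adjusted p = 0.00342 in limma), but its 2 probes disagreed, at 0.99 and -0.03, and with treated RNA in Cy5 only it did not pass (0.25, adjusted p = 0.137). The receptors Lrp1 (-0.86 ± 0.13, adjusted p = 0.000342 in limma) and Scarb1 (-0.50 ± 0.08, adjusted p = 0.00235), which take up remnant lipoproteins and HDL cholesterol, both fell. Lipa and Vldlr were at -0.07 and -0.06.

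Efflux and oxysterol genes gave 1 rise and 1 fall among 9 measured of 14 listed, a share of called genes not above the 31.4% of all genes. The counts up and down were 2 and 1 with treated RNA in Cy3 only and in the model of 6 separate arrays. In Cy5 only they were 0 and 0. Lcat just missed the threshold (0.25 ± 0.13, adjusted p = 0.0504 in limma). Nr1h3, which encodes the sterol sensor LXR alpha, rose (0.32 ± 0.15, adjusted p = 0.0256 in limma), a call lost without set 1 (0.35, adjusted p = 0.0791), without set 3 (0.23, adjusted p = 0.0958) and with treated RNA in Cy5 only (0.19, adjusted p = 0.331). Apoe, a cholesterol-carrying apolipoprotein, fell (-0.36 ± 0.16, adjusted p = 0.0175 in limma), a call lost without set 2 (-0.30, adjusted p = 0.0878) and with treated RNA in Cy5 only (-0.44, adjusted p = 0.0676). Ch25h, which makes an oxysterol, was at 0.07 ± 0.22 (adjusted p = 0.665 in limma), with a 95% interval of -0.16 to 0.30. The efflux pump Abcg1 was at -0.10, and Abca1 had a ratio on 5 arrays only, from -0.37 to 0.34.

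Among fatty acid genes driven by SREBP, 8 of 13 listed were measured, of which 5 fell and 1 rose, beside 14.6% of all genes down and 16.8% up. Their median was -0.32. Acly (-0.20 ± 0.11), which makes acetyl-CoA, and Mid1ip1 (0.20 ± 0.07) did not pass. Fasn, fatty acid synthase, was at -1.08 ± 0.27 (adjusted p = 0.000507 in limma), and Me1, which supplies NADPH, at -0.57 ± 0.12 (adjusted p = 0.00186). The desaturases Scd1 (-0.45 ± 0.23), Fads2 (-0.40 ± 0.16) and Fads1 (-0.24 ± 0.03) also fell. Acss2, acetyl-CoA synthetase, rose (0.55 ± 0.29, adjusted p = 0.0111 in limma), with set values of 0.56, 0.83 and 0.25. With treated RNA in Cy5 only, the 3 desaturases did not pass (adjusted p = 0.242 for Scd1, 0.188 for Fads1 and 0.2005 for Fads2), and in Cy3 only Scd1 was at -0.67. The number that fell was 2 without set 1, 3 without set 2, 4 without set 3, 2 with treated RNA in Cy5 only and 5 in Cy3 only. Without set 1, Acss2 lost its call (adjusted p = 0.052), as did Scd1, Fads1 and Fads2, and Fads1 and Fads2 lost theirs without set 2. Fads1 was also lost without set 3 (-0.24, adjusted p = 0.0861).

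Isoprenoid branch genes, which draw on the same farnesyl diphosphate, rose in 3 of 7 measured cases and fell in 1, out of 12 listed, beside 16.8% and 14.6% of all genes. Ggps1, which makes geranylgeranyl diphosphate, was at 0.91 ± 0.27 (adjusted p = 0.00103 in limma), with set values of 0.77, 0.75 and 1.22. Nus1, a subunit of the enzyme that makes dolichol chains, was at 0.69 ± 0.07 (adjusted p = 0.000579 in limma), while its partner Dhdds was at -0.24 ± 0.07 (adjusted p = 0.0451). The Dhdds call was lost without set 1 or set 2 (adjusted p = 0.206 and 0.147), in either orientation alone (0.059 and 0.258), after quantile normalization (0.0512) and with exact zeros kept (0.0504). Rabggtb, a subunit that prenylates Rab proteins, rose (0.45 ± 0.19, adjusted p = 0.0099 in limma), and its call was lost without set 1 (0.39, adjusted p = 0.0633), without set 2 (0.40, adjusted p = 0.0527) and with treated RNA in Cy5 only (0.34, adjusted p = 0.0761).

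**Figure D3:**
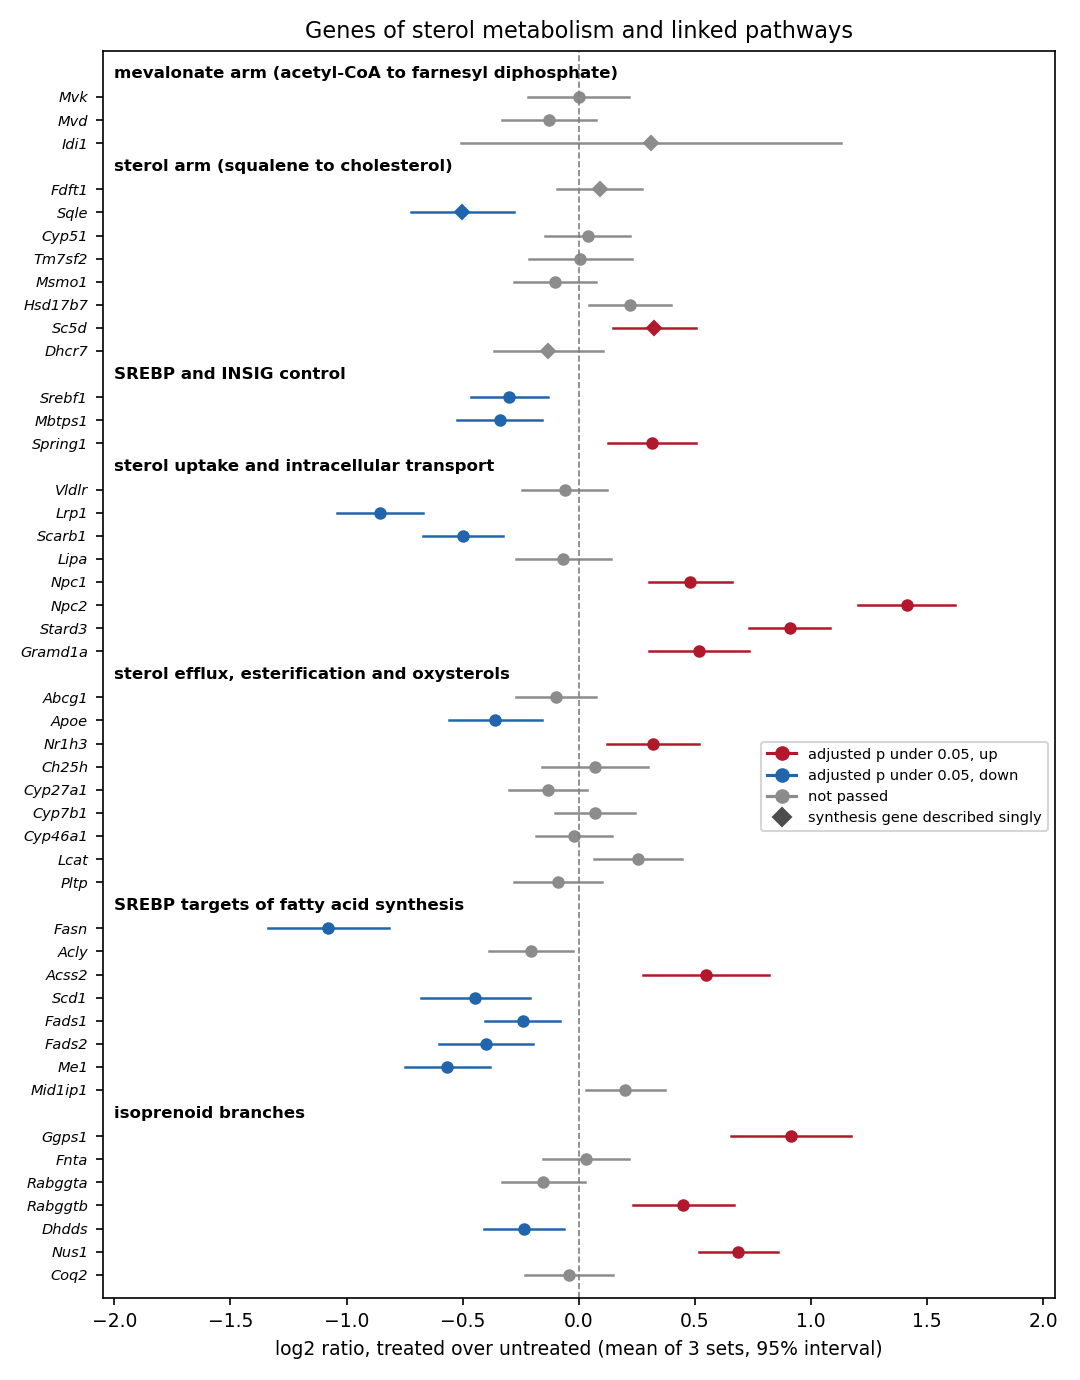
The log2 ratio of treated over untreated cells, as the mean of 3 sets with its 95% interval from limma, is plotted for 46 measured genes in 7 lists. Red marks genes that rose, blue genes that fell and grey genes that did not pass an adjusted p of 0.05, and diamonds mark the 5 synthesis genes. In the 2 synthesis lists at the top only Sqle and Sc5d are coloured, 2 of 11 genes, beside 31.4% of all genes. Coloured too are 3 of 3 SREBP control, 6 of 8 uptake and transport and 2 of 9 efflux genes. The last lists have 6 of 8 fatty acid and 4 of 7 isoprenoid genes coloured.

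Over all lists together, 23 of 46 measured genes changed, 11 up and 12 down, out of 90 listed, beside 16.8% and 14.6% of all genes. Without set 1, 2 or 3 this was 6 and 7, 10 and 7, and 9 and 11. Synthesis genes made up 2 of these 23 genes. The difference in frequency between the synthesis genes and the other lists was not tested.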

How the data were processed

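Processed values came as 1 table of log2 ratios, 1 column for each of 6 dual-colour arrays, as read from the signs and range of the deposited values. Background correction and normalization: not given in the sources used here. Column medians were 0 as deposited and the highest value was 6.644, the log2 of 100. Exact zeros (9.563% to 12.86% of an array) were taken as missing.

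Of 16281 probes, 13738 named 1 gene symbol, 52 named several and the others are unnamed here. Of the 13418 probes with no missing ratio, those naming 1 gene symbol were averaged by gene. Ratios were turned to treated over untreated, the 2 arrays of a set were averaged, and the 3 values were tested against 0 with limma 3.58.1 in R 4.3.3 (lmFit and eBayes, two-sided, Benjamini-Hochberg over 9607 genes, threshold 0.05). The fit was tested on simulated data.

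The 8 genes and the 7 gene lists were chosen with earlier results of these data known. Named genes were the 8, all list genes past the threshold and 10 fixed by name. Hsd17b7, Mvk, Mvd, Acly, Mid1ip1, Msmo1, Tm7sf2, Lipa, Vldlr, Abcg1 and Lcat were added after their values were seen. Nearest genes had the smallest root mean square distance over 6 arrays. Promoter sequences are from RefSeq, GRCm38.p6, read with Python 3.11.15. The number of arrays limits the precision.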

Additional observations from a re-analysis of the deposited data

Results flagged for a closer look

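Cyp51, the lanosterol demethylase, had 1 array apart from the others. On the array of set 2 with treated RNA in Cy3 its log2 ratio was -0.21, while the nearest of the other 5 arrays was at 0.02. Of 28 genes examined in this way over the 6 turned arrays, 1 stood apart, and chance gives about 1 in 20. Idi1 did not stand out by this measure, because its 2 high values share set 3.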

How the results depend on the processing

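The number of all genes called ranged from 2157 to 3649 over the alternatives, against 3018. Of the 5 synthesis genes, 2 were called, against 1 with treated RNA in Cy5 only, 3 in Cy3 only and 1 to 2 without one set. Over the 7 lists 23 genes were called, against 14 with treated RNA in Cy5 only and 13 to 20 when one set was left out. In Cy3 only 23 list genes were called, and in the model of 6 separate arrays 27. Sqle kept its direction and its call in all 14 alternatives. Sc5d kept its direction in all 14, at 0.34 without a call with treated RNA in Cy5 only and at 0.27 to 0.36 with one set left out. Dhcr7 changed sign to 0.14 with treated RNA in Cy5 only and was called at -0.40 in Cy3 only. Idi1 ranged from -0.30 (without set 3) to 0.73 with one set left out. Fdft1 was above 0 without a call in all 14. Fits on one orientation or without one set hold fewer arrays. With equal numbers of arrays, 3104 of all genes were called in Cy3 only and 2157 in Cy5 only. The cause of these differences was not tested. Treating the set as a random replicate block left Sqle at -0.50 (adjusted p = 0.00255 in limma) and Sc5d at 0.32 (adjusted p = 0.00907), with 3088 genes called, and without any block 3649 were called. Deviations of the 2 arrays with one set number correlated at 0.219, 0.0789 and 0.570, and the correlation of the replicate block was 0.393. The block correlation sets deviations within a set against those between sets. It was positive, so arrays of a set shared some variation over all genes. Whether they share RNA extracts or cultures is not in the labels and was not tested.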
